A study of Drosophila melanogaster with 2 samples.

Results

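The 260 microRNA precursor genes of Drosophila melanogaster on the nuclear chromosome arms were described by the chameau (chm) peaks at and around them. Members were all genes with a pre_miRNA transcript in the Ensembl models, 260 of 17796 annotated genes once transposable elements and the separate entries for mature microRNAs were left out. Peaks came from 2 biological replicates of 1 group: whole embryos of mixed stages, 0 to 24 h old, from transgenic flies expressing a chm-eGFP fusion, precipitated with an anti-GFP antibody. What drives the fusion gene, and whether the untagged chm gene was also present, is not given in the sources used here. No other group was set against them. A gene had a summit near its start when the highest point of a peak lay within 500 bp of its annotated 5′ end; for a precursor gene this is the end of the hairpin, not the place where its transcription begins. The conservative list, built from peaks matched between the replicates, is used unless another is named. It held 4195 peaks on these arms with a median signal of 94.1, on a scale that is not given. The sequencing depth is unknown, and SDs over 2 replicates describe these samples. Peaks from whole embryos do not tell how many cells carried it at a site, or which cells.

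MicroRNAs are cut from hairpins within longer RNA polymerase II transcripts by Drosha with its partner Pasha, and then by Dicer-1. The mature strand is loaded into Argonaute and pairs through its seed, bases 2 to 8, with target mRNAs. The start of the primary transcript can lie far upstream of the hairpin, at the start of a long non-coding RNA or of a protein-coding gene whose intron holds the hairpin. Chameau is an acetyltransferase of the MYST family that modifies histones.

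The mature products below belong to members with a summit at the hairpin and to bantam (mir-ban), whose host and upstream sequence carried peaks. They are shown because the results turn on these microRNAs, with the seed in capitals. Sequences were read from the RefSeq release 6 genome (dm6) at the Ensembl positions, with T written as U.
mir-276a 3′ arm, chr3L:10365281-10365302, plus strand: uAGGAACUucauaccgugcucu
mir-275 3′ arm, chr2L:7425853-7425875, plus strand: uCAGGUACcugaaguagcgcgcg
mir-305 5′ arm, chr2L:7425979-7426001, plus strand: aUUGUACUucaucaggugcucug
mir-1 3′ arm, chr2L:20487496-20487517, plus strand: uGGAAUGUaaagaaguauggag
mir-277 3′ arm, chr3R:10100080-10100102, plus strand: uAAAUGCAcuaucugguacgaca
mir-34 5′ arm, chr3R:10100952-10100975, plus strand: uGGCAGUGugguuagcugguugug
mir-92a 3′ arm, chr3R:25646560-25646581, plus strand: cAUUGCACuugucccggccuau
mir-ban 3′ arm, chr3L:642259-642281, plus strand: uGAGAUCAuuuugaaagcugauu
The seeds of mir-305, mir-277 and mir-34 belong to no other member. The mir-275 seed is shared with mir-306, that of mir-276a with mir-276b, and that of mir-92a with mir-92b and the mir-310 to mir-313 genes.

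Few hairpins carried a chm-eGFP summit. In the conservative list 17 of 260 precursor genes (6.54%, 95% Wilson interval 4.12 to 10.2%) had one within 500 bp, against 13.3% of all genes. Protein-coding genes had one at 14.9%, transfer RNA genes at 17.2%, small nucleolar RNA genes at 10.4% and long non-coding RNA genes at 7.06%, so hairpin starts stood below coding starts and near the share of long non-coding RNAs. Of all positions on the arms, 2.82% lay within this distance of a summit. The pooled list had a summit at 25 members (9.62%), against 17.0% of all genes. The list of replicate 1 had 14 (5.38%, against 10.6%) and the list of replicate 2 had 13 (5%, against 13.4%), a mean of 5.19% ± 0.272 (SD, n = 2). In the ranked list that pairs the replicates without a threshold, 163 members had a summit, against 62.2% of all genes. Of the 243 members without a conservative summit, 146 had such a ranked peak within 500 bp, with a median signal of 27.8 (2.23 to 199), and 97 had none.

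**Figure D1:**
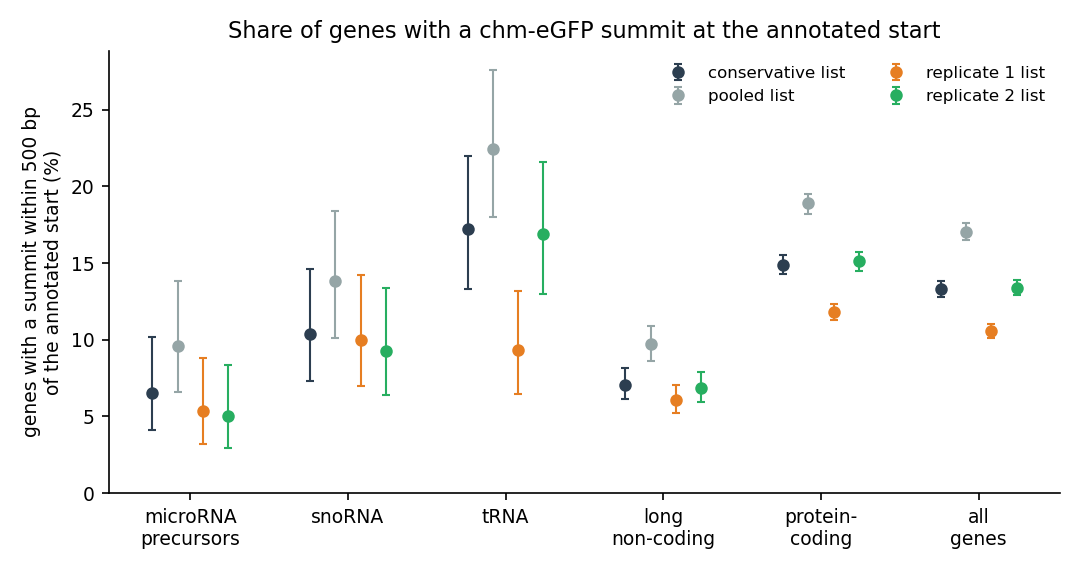
Share of genes (%, vertical axis) with a summit within 500 bp of the annotated start, for microRNA precursors, other gene classes and all genes in 4 peak lists; bars are 95% Wilson intervals, which cover counting error only. MicroRNA precursors sit at 5 to 9.62%, below protein-coding genes in each list.

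A host is an annotated gene on the same strand that spans the precursor. Of 46 precursors with a long non-coding host, 7 (15.2%, 7.57 to 28.2%) had a summit. Of 136 in protein-coding hosts 8 did (5.88%, 3.01 to 11.2%), and of 51 outside genes 2 did (3.92%, 1.08 to 13.2%). The share of all genes, 13.3%, lay inside the interval for non-coding hosts. The intervals of these contexts overlap. The list of each replicate gave 10.9% for precursors in non-coding hosts, against 10.6% (replicate 1) and 13.4% (replicate 2) of all genes. Among the stronger 50% of peaks this order did not hold, with 1 of 46 in non-coding hosts (2.17%) and 4 of 136 in protein-coding hosts (2.94%). These counts are too small to rank the contexts. None of the 27 precursors that lie only opposite a gene had one, with an upper Wilson limit of 12.5%. None of the 34 precursors that fill a whole intron, the arrangement of mirtrons, had one (upper limit 10.2%). Of the 29 precursors within 500 bp of a protein-coding start, 3 had a summit (10.3%, 3.58 to 26.4%), against 13.3% of all genes. Of the 231 farther away 14 did (6.06%, 3.64 to 9.91%). By distinct peak, 20 summits lay near members, 12 of them upstream of the hairpin, with 10 in exons, 4 in introns, 5 at protein-coding promoters and 1 in intergenic sequence. The peak shared by mir-275 and mir-305 was counted as downstream, by its place at mir-275. It lies upstream of mir-305, the nearer start.

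**Figure D2:**
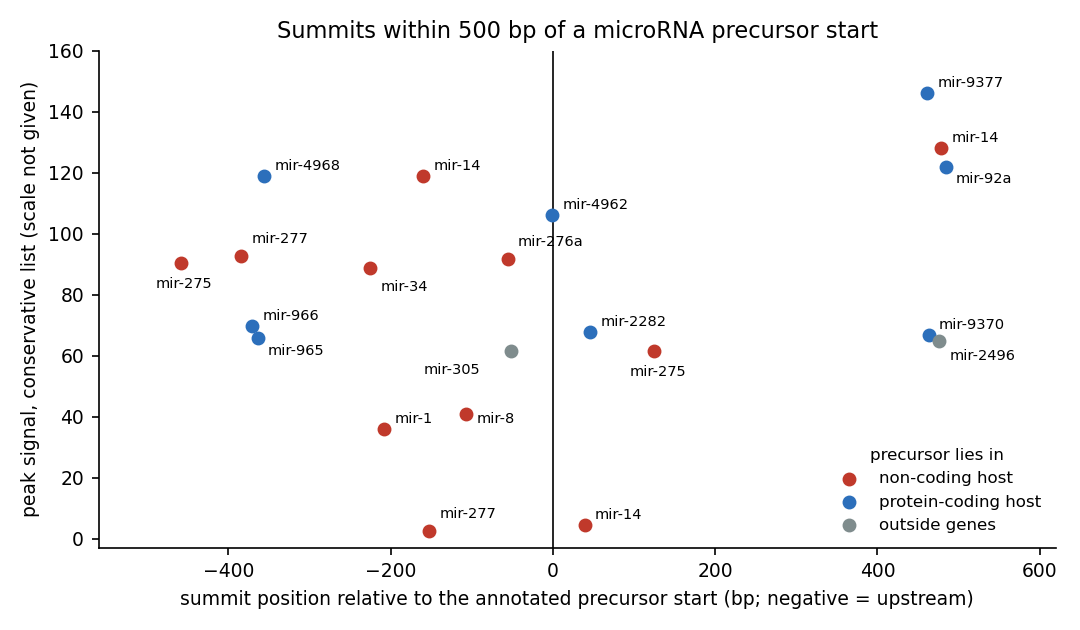
Position of each conservative summit within 500 bp of a precursor start (bp along the precursor's strand, negative upstream) against its peak signal; colours give the kind of gene the precursor lies in. Summits of precursors in non-coding hosts lie mostly upstream, from 459 bp before to 478 bp after the start, and the 2 points below 10 sit beside stronger peaks.

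Among the precursors in non-coding hosts, mir-276a, which acts in the nervous system in memory formation, had a summit 56 bp upstream of its hairpin. Its signal was 91.8 in the conservative list, and 42.1 in replicate 1 and 41.4 in replicate 2, the closest pair among the 17 (41.8 ± 0.536, SD, n = 2). The peak was in neither replicate's own list past the threshold. mir-277, a regulator of branched-chain amino acid breakdown, and mir-34, known for its part in ageing and brain integrity, lie in 1 transcript, lncRNA:CR43459. The summit of mir-277 lay 384 bp upstream with a signal of 92.7 (41.4 in replicate 1, 43.6 in replicate 2), and that of mir-34 lay 225 bp upstream with 88.6 (39.4 and 38.2). These 3 peaks were of nearly the same height, and the replicates differed by little at each. A further summit 153 bp upstream of mir-277 had a signal of 2.60 and shared both of its replicate signals with the stronger peak beside it. Such low values were a feature of the list: 81 peaks had a signal under 10, and 79 of them shared both replicate signals with another peak.

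The mir-275 and mir-305 hairpins lie side by side, mir-305 just beyond the annotated end of the mir-275 host. mir-305 acts in gut stem cells and in ageing. Both hairpins shared a peak. Its summit lay 52 bp upstream of mir-305 and 125 bp downstream of the mir-275 start, with a signal of 61.6 (32.4 in replicate 1, 34 in replicate 2). A stronger peak, at 90.5, stood 459 bp upstream of mir-275 in an exon of its host lncRNA:CR43857 (34.3 in replicate 1, 57.3 in replicate 2). Replicate 2 was the higher at both peaks, by a wide margin at the upstream one only. mir-1, the muscle microRNA, had a summit 208 bp upstream with the lowest signal of the 17, 35.9. The paired replicate signals were 29.5 and 49.8 (39.7 ± 14.4, SD, n = 2), the higher from replicate 1, and no ranked peak of replicate 2 contained the summit.

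mir-14, a suppressor of cell death that also acts in fat metabolism, had 3 conservative summits. They lay 160 bp upstream with a signal of 119 (60.4 in replicate 1, 62.4 in replicate 2), 478 bp downstream with 128, and 39 bp downstream with 4.53, where both replicate signals were those of the upstream peak. At the downstream peak the paired signals were 38.8 and 84.6, the higher from replicate 1. The upstream peak was thus even between the replicates and the downstream one was not. mir-8, which controls growth through insulin signalling in the fat body, had a summit 107 bp upstream with a signal of 40.8 (25.7 and 40.9 in the pair, the higher from replicate 1). The mir-1 and mir-8 summits were the ones absent from the pooled list.

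Protein-coding hosts gave 8 more members. The strongest of all 17 was at mir-9377, in an intron of Tis11, which encodes a zinc finger protein of mRNA decay. Its summit lay 461 bp downstream with a signal of 146 (rank 909 of 4195), and 70.6 in replicate 1 and 74.4 in replicate 2. mir-92a, which with mir-92b maintains neuroblasts, lies in an intron of jigr1. Its summit stood 484 bp downstream of the hairpin start and 256 bp from a start of jigr1, with a signal of 122 (65.8 in replicate 1, 44.6 in replicate 2). The mir-4968 summit lay 356 bp upstream, 63 bp from a start of Mob2, a partner of Tricornered kinases, with 119 (64.4 and 54.8). At mir-4962, in an intron of the Tousled-like kinase gene Tlk, the summit lay 1 bp from the hairpin start, with 106 (47.3 and 59.0). Each replicate's own list held these 4, and likewise mir-14 and mir-275 through summits near the hairpin.

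The other protein-coding hosts had lower peaks, all with a signal between 65.7 and 69.6. They held mir-966, 371 bp from a summit at the promoter of the purine synthesis gene Pfas (38.2 in replicate 1, 43.2 in replicate 2), and mir-2282, 46 bp from a summit in an intron of sty (33.8 and 28.8). sty encodes Sprouty, an antagonist of receptor tyrosine kinase signalling. mir-965 lay 364 bp from a summit in an intron of the chromatin remodeller gene kis (40.7 and 27.1). mir-9370, in a 3′ UTR exon of Amun, lay 463 bp from a summit at the promoter of the fucosyltransferase gene FucT6 (36.2 and 33.0). Outside genes, mir-2496 lay 476 bp from a summit at the promoter of east, with a signal of 64.7 (33.3 and 31.2). Replicate 1 was the higher at mir-2282, mir-965, mir-9370 and mir-2496, and replicate 2 at mir-966.

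**Figure D3:**
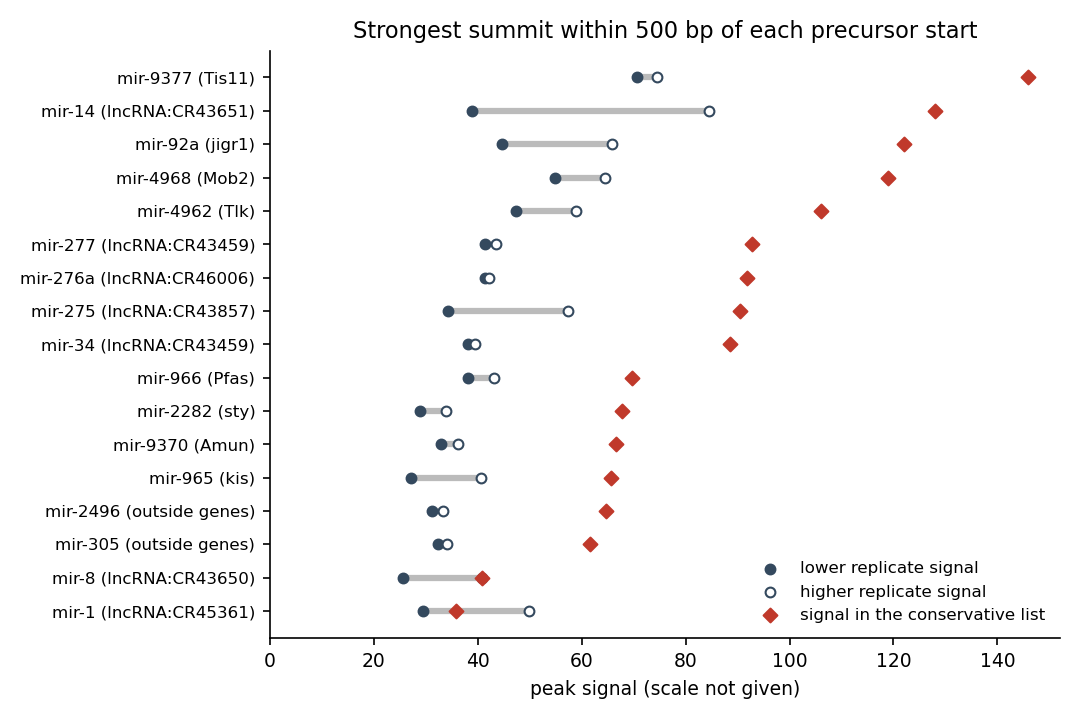
Signal of the strongest summit within 500 bp of each of the 17 precursors (horizontal axis, scale not given): diamonds are the conservative list, circles the lower and higher of the 2 replicate signals in the ranked list that pairs them, joined by a grey line. The conservative signals run from 35.9 at mir-1 to 146 at mir-9377, and the replicates lie farthest apart at mir-14.

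Over the 17 members the strongest summit had a median signal of 88.6 (35.9 to 146), and 5 of them stood above the median of the whole list, 94.1. The strongest summit lay upstream in 11. By members, 6 were near a summit in both replicate lists, 13 in at least 1, and mir-2282, mir-2496, mir-276a and mir-34 in neither. The 201 bases centred on 4 of the summits are shown because the peak there lay on or beside the hairpin itself: capitals mark the bases of the annotated precursor, and the summit is the middle base. They are 5′ to 3′ on the precursor's strand, from the RefSeq release 6 genome (dm6).
mir-276a summit, chr3L:10365072-10365272, plus strand: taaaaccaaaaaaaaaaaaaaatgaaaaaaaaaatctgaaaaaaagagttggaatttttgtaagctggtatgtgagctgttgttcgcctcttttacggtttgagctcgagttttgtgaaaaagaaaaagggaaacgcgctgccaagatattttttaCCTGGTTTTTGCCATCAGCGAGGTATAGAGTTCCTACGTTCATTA
mir-305 summit, chr2L:7425820-7426020, plus strand: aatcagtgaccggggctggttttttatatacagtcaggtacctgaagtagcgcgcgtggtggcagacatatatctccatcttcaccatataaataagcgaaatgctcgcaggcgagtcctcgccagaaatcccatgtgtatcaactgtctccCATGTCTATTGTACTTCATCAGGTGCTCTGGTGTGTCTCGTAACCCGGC
mir-4962 summit, chrX:3777281-3777481, plus strand: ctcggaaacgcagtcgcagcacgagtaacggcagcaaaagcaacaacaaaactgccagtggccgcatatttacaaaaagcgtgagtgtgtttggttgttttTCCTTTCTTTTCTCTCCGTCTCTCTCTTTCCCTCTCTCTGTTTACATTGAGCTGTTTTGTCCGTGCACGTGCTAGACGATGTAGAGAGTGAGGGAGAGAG
mir-2282 summit, chr3L:3412105-3412305, minus strand: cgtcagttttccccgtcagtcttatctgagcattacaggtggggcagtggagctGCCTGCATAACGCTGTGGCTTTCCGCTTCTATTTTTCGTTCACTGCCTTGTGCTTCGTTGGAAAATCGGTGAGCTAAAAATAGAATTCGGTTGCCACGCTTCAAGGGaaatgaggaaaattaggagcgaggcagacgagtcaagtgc
The precursor filled 45 bases of the mir-276a window, 49 of the mir-305 window, which also holds 73 bases of the mir-275 precursor, 100 of the mir-4962 window and 107 of the mir-2282 window. The mir-4962 window held 8 overlapping matches to GAGAG on either strand, the core of the GAGA factor motif, and the other 3 held none.

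Hairpins with a summit only outside the conservative list numbered 12. Of these, 10 were in the pooled list: mir-1000, mir-193, mir-281-1, mir-281-2, mir-9378, mir-958, mir-967, mir-995, mir-996 and bantam. The mir-9378 peak, in an intron of CG17124, was the strongest at any hairpin in the pooled list, at 199, with 182 in replicate 1 and 22.7 in replicate 2. The summit lay 159 bp upstream. Its replicates differed more than at any of the 17 conservative members. The other 9 had pooled signals between 43.0 (bantam) and 67.6 (mir-1000, which also had a weak summit of 3.06), all below the pooled median of 79.2. bantam, a growth and survival microRNA, had its pooled summit 172 bp upstream, with 18.9 in replicate 1 and 35.0 in replicate 2. mir-9388, beside Mes2, was near a summit in the list of replicate 1 only (42.8) and mir-4955, in trol, in that of replicate 2 only (47.0). The 500 bp limit ran through a row of close values. The last members inside were mir-966 (371 bp), mir-9377 (461 bp), mir-9370 (463 bp), mir-2496 (476 bp) and mir-92a (484 bp). The first outside were mir-9388 (501 bp, signal 78), mir-4975 (556 bp, 88.1), mir-4957 (557 bp, 48.5), mir-282 (709 bp, 85.4) and mir-375 (714 bp, 150).

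The median distance from a precursor start to the nearest conservative summit was 10904 bp, with quartiles of 4240 and 35744 bp. The same distance was not computed for all genes or for positions on the arms. The median is therefore not shown to be particular to hairpins. Within 1000 bp of a summit lay 26 members (10%, against 16.3% of all genes), and within 2000 bp 39 (15%, against 21.2%). Within 5000 bp lay 76 and within 10000 bp 125. A summit stood within 5000 bp upstream of 52 members and within 5000 bp downstream of 44, with 20 in both counts. Shares of all genes were not computed beyond 2000 bp or by side, so these wider counts have no background to be read against. Where neighbouring hairpins on 1 strand, up to 10000 bp apart, were taken as 1 locus, 15 of 203 loci (7.39%, 4.53 to 11.8%) had a summit. Of the 22 loci with more than 1 hairpin, which hold 79 members, 3 did: mir-275 with mir-305, mir-277 with mir-34 and mir-317, and mir-92a with mir-92b. The largest clusters had none. The 12 hairpins from mir-972 to mir-979 on X had no summit within 5000 bp, nor did the 8 of the mir-309 cluster, which clears maternal mRNAs in the early embryo, the 6 from mir-959 to mir-964 or the 3 of the let-7 complex. The mir-310 cluster of 7 had 1 summit within 5000 bp. Members numbered up to mir-318, or with a name in place of a number, had a summit at 9 of 84 (10.7%) and the others at 8 of 176 (4.55%), a split made after the values were seen. The share of all genes was 13.3%.

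Host genes had a summit at a start more often than hairpins had one, though the measures differ. A host counted if any of its annotated starts was near a summit, while a hairpin has 1 position. The 182 precursors with a host lie in 161 distinct hosts, of which 59 had a summit within 500 bp of an annotated start. Of 33 long non-coding hosts, 11 did (33.3%, 95% Wilson interval 19.8 to 50.4%), against 7.54% of all long non-coding RNA genes. Of 128 protein-coding hosts, 48 did (37.5%, 29.6 to 46.1%), against 16.8% of all protein-coding genes. The replicate lists gave 33.3% for the non-coding hosts in both, against 6.4% (replicate 1) and 7.1% (replicate 2) of all long non-coding RNA genes. For the coding hosts replicate 1 gave 25.8%, against 13.5% of all protein-coding genes, and replicate 2 gave 39.8%, against 17.2%. Over all hosts the replicates gave 32.9% ± 7.91 (SD, n = 2). By precursor, 66 had a host with a summit at a start, and 64 lay downstream of such a start, 12 of them in non-coding hosts. For 12 both the host start and the hairpin had a summit, for 54 the host start alone, for 3 the hairpin alone and for 113 neither. The 12 are not all separate pairs of peaks: at mir-92a, mir-4968 and mir-966 the same peak counted at both places.

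Hosts are longer than other genes and have more annotated starts, and both move with the share. The median length was 14094 bp for protein-coding hosts and 2164 bp for all protein-coding genes, and 6494 bp for non-coding hosts and 714 bp for all long non-coding RNA genes. Among protein-coding genes with 1 start, 12 of 56 hosts (21.4%, 12.7 to 33.8%) and 11.9% of other genes had a summit. With 2 starts these were 14 of 30 hosts (46.7%, 30.2 to 63.9%) and 25.2% of other genes, and with 3 or more 22 of 42 (52.4%, 37.7 to 66.6%) and 41.1%. By length the gap narrowed: under 5000 bp 14.6% of hosts and 12.2% of other protein-coding genes had one, from 5000 to 20000 bp 43.6% and 26.9%, and over 20000 bp 52.1% and 38.9%. Among non-coding genes with 1 start, 5 of 21 hosts (23.8%, 10.6 to 45.1%) and 6.84% of others had a summit. Among those of 5000 to 20000 bp, 8 of 17 hosts (47.1%, 26.2 to 69.0%) and 7 of 73 others (9.59%, 4.72 to 18.5%) did. The other lengths gave smaller gaps with overlapping intervals: under 5000 bp 2 of 12 hosts (16.7%, 4.7 to 44.8%) and 7.02% of others, and over 20000 bp 1 of 4 hosts (25%, 4.56 to 69.9%) and 18.2% of others. How far length and the number of starts account for the shares was not tested beyond these strata, which were chosen after the shares were seen.

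**Figure D4:**
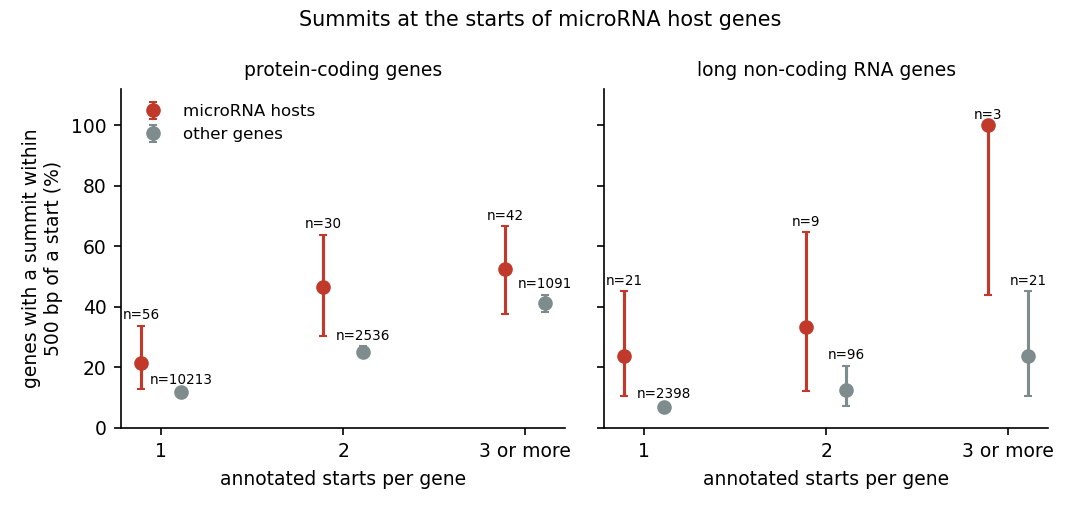
Share of genes (%) with a summit within 500 bp of an annotated start, for microRNA hosts and other genes, by the number of annotated starts; left, protein-coding genes, right, long non-coding RNA genes; bars are 95% Wilson intervals and n is the number of genes. Hosts stand above other genes at each number of starts, with overlapping intervals at 3 or more starts in both panels and at 2 starts in the right one.

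The strongest peak at any microRNA host lay at the start of lncRNA:CR31044, the primary transcript of mir-279 and mir-996, which share a seed and act in the formation of CO2-sensing neurons and in JAK/STAT signalling. Its signal was 780, rank 19 of 4195, with 444 in replicate 1 and 348 in replicate 2 (396 ± 67.9, SD, n = 2). The summit of this peak (chr3R:29214306-29214584) lay 116 bp upstream of the host start, 1139 bp from mir-279, 2738 bp from mir-996 and 5726 bp from the nearest protein-coding start, that of eEF1gamma. At the hairpins themselves no conservative summit was within 500 bp. Among the non-coding hosts lncRNA:CR46006, the host of mir-276a, came next, with a signal of 279 (147 in replicate 1, 121 in replicate 2) 10 bp from its start and 1199 bp from the hairpin. lncRNA:CR43334, the host of bantam, had 136 (64.3 and 71.1 in the pair, 71.1 from replicate 1) 46 bp from its start and 2448 bp from the hairpin. No ranked peak of replicate 2 contained this bantam host summit, and it was in the list of replicate 1 only. All 11 non-coding host summits lay more than 500 bp from any protein-coding start.

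Other non-coding hosts with a start summit served well-studied microRNAs. The mir-14 host had 202 (110 and 146 in the pair) and the mir-8 host 181 (89.7 in replicate 1, 77.7 in replicate 2), each within 17 bp of the start. For both, the summit at the host start was stronger than those at the hairpin. At the mir-14 host the 146 was from replicate 2. No ranked peak of replicate 1 contained that summit. The host of mir-124, the microRNA of differentiated neurons, had 137 (92.7 in replicate 1, 43.6 in replicate 2), an uneven pair. The mir-275 host had 132 (70.2 and 63.9), and the host of mir-184, which acts in the female germline and early embryo, 123 (68.3 and 46.4). The hosts of mir-bft (96.1), of mir-10 (91) in the Hox complex that holds Dfd, and of mir-282 (85.4) had the lowest, the mir-282 peak being in the list of neither replicate. Of the 11, 6 had the summit in the lists of both replicates.

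**Figure D5:**
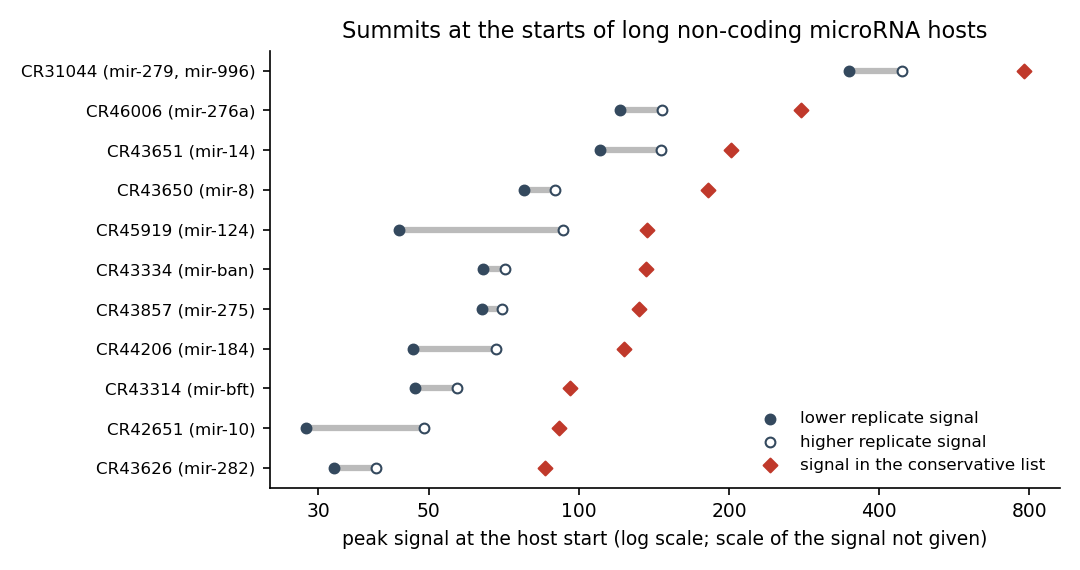
Signal of the strongest summit within 500 bp of a start of each of the 11 long non-coding hosts (horizontal axis, log scale), with the microRNAs they hold in brackets; diamonds are the conservative list and circles the lower and higher replicate signal. CR31044 stands at 780 and the other 10 between 85.4 and 279.

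The 300 bases at 3 of these host starts are shown because a conservative peak lay at each. At mir-276a the hairpin also had a conservative summit, of lower signal (91.8). Each runs from 250 bases before the annotated start, with the transcribed bases in capitals, in the RefSeq release 6 genome (dm6). The summit is base 135 of the mir-279 and mir-996 host, base 261 of the mir-276a host and base 297 of the bantam host.
lncRNA:CR31044, chr3R:29214312-29214611, plus strand: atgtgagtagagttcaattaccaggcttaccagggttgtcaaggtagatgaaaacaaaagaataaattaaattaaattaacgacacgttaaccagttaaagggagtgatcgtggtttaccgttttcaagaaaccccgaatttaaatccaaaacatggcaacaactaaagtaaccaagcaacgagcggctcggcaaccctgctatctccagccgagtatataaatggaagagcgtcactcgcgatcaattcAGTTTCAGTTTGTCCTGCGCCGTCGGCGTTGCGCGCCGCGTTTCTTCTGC
lncRNA:CR46006, chr3L:10363769-10364068, plus strand: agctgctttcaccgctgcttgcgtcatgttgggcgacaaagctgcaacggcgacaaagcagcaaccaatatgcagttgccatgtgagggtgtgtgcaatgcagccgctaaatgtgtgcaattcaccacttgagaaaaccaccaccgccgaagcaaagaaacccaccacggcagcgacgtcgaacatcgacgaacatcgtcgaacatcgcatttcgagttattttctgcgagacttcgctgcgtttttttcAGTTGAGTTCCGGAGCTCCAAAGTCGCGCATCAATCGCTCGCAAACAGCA
lncRNA:CR43334, chr3L:639464-639763, plus strand: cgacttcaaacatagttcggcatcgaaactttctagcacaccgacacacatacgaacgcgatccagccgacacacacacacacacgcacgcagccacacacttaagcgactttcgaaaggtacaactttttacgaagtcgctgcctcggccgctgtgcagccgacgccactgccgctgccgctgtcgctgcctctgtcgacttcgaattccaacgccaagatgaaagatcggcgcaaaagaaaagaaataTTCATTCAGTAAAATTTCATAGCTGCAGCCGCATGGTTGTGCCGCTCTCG
The first of these holds TATAAA beginning 33 bases before the start. A match 45 to 20 bases before the start, on the transcribed strand, was found at 8.81% of protein-coding and 3.45% of long non-coding RNA genes, and at 1 of the 11 hosts. TCAGT, the fly initiator, began within 5 bases of the start at 4 of the 11 hosts (36.4%, 15.2 to 64.6%), these 3 and the mir-10 host among them, against 10.9% of protein-coding and 3.89% of long non-coding RNA genes. Both were looked for after these sequences had been read.

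Hosts without a conservative summit at a start included that of let-7, mir-100 and mir-125, the heterochronic complex, 12434 bp from the nearest. Other non-coding hosts without a conservative summit had one in the pooled list. The mir-277 and mir-34 host lay 40 bp from a pooled summit and 78 bp from one of replicate 2. The mir-1 host was 107 bp from a pooled summit, the host of mir-9a, which secures sensory organ precursors, 83 bp, and the host of mir-1000 11 bp. In the pooled list 15 of 33 non-coding hosts (45.5%) had a start summit, against 10.1% of all long non-coding RNA genes.

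At protein-coding hosts with a start summit the signals ran from 64.9 to 443, with a median of 117, and 26 of 48 had the summit in the lists of both replicates. Btk, a tyrosine kinase gene and the host of mir-2b-1, was the strongest, with 443 (210 and 211 in the pair). SKIP, the host of mir-1010, had 339 (131 and 216) and sty, the host of mir-2282, 276 (111 and 158). Btk was even between the replicates, while SKIP and sty were not. Tis11 had 223, the foraging kinase gene for, host of mir-4972, 217, and Oda, the ornithine decarboxylase antizyme gene that holds mir-281-1 and mir-281-2, 213. The Oda summit lay 147 bp from its start and 96 bp from a start of SmD3. RpS23, a ribosomal protein gene and host of mir-308, had 179, with the summit 728 bp from the hairpin. SREBP, a regulator of lipid synthesis, had 132 (59.0 in replicate 1, 66.0 in replicate 2) and holds mir-33, 4354 bp away; this summit lay 328 bp from the SREBP start and 38 bp from that of Gyc76C. Of the 48 summits at coding hosts, 4 were nearer to a start of another protein-coding gene, at Oda, SREBP, Usp12-46 and Kpc1. spi, which encodes an EGF receptor ligand and holds mir-2a-1, mir-2a-2 and mir-2b-2, had 115 (54.0 in replicate 1, 69.2 in replicate 2). E2f1, a cell cycle regulator and host of mir-11 and mir-998, had 70.8. Its start summit was in the list of replicate 2 past the threshold (40.4). In replicate 1 only a ranked peak, with a signal of 35.6, contained it. HnRNP-K, the host of mir-7, had a start summit in the pooled list only (67.1).

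Of 30 members listed for known roles, 7 had a summit at the hairpin in the conservative list (23.3%, 11.8 to 40.9%), against 6.54% of all precursors and 13.3% of all genes. The list of replicate 1 had 5 of the 30 (16.7%, against 10.6% of all genes). That of replicate 2 had 4 (13.3%, against 13.4% of all genes). These members were chosen with earlier results of these data known. The 7 were mir-1, mir-8, mir-14, mir-34, mir-277, mir-276a and mir-92a, and bantam and mir-996 had one in the pooled list. Among those without, mir-124 lay 1599 bp from the nearest conservative summit, mir-10 1267 bp and mir-9a 4285 bp, that last summit having a signal of 311. The Hox cluster hairpins mir-iab-4 and mir-iab-8, which lie on opposite strands and restrain Ubx, lay 8911 and 8978 bp away. mir-133 was 28874 bp and mir-let7 28751 bp from the nearest. mir-276b, which has the seed of mir-276a, was 35119 bp away and its host had no start summit, so the pair differed in both.

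The 260 precursors have 481 mature products with 426 distinct seeds, 33 of them shared by more than 1 member. The largest seed family, AUCACAG, has 14 members (mir-2, mir-13, mir-6, mir-5, mir-11 and mir-308 genes), which repress pro-apoptotic genes. None of the 14 had a summit at the hairpin in any of the 4 lists, though hosts of several did, as given for Btk, spi, E2f1 and RpS23. Of the 6 members with AUUGCAC, mir-92a alone had one. Of the 17 members with a conservative summit, 12 share no seed with another member.

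Genes of the microRNA machinery were listed by role. Of 24, 7 had a summit within 500 bp of a start (29.2%, 14.9 to 49.2%), against 16.8% of all protein-coding genes, a share inside the interval. Processing factors had 1 of 10, Cbp20 of the nuclear cap-binding complex (87.9). drosha, pasha, Dcr-1, loqs, Ranbp21, Ars2, Cbp80, Tailor and Nbr had none. Silencing factors had 5 of 10. They were AGO1 (103), the Argonaute of microRNAs, pAbp (123), the poly(A)-binding protein gene, the deadenylase genes Not1 (69.9) and Pop2 (63.9), and the decapping enzyme gene DCP2 (78.3). gw, twin, me31B, DCP1 and Ge-1 had none. In the related siRNA branch r2d2 (121) had one, and Dcr-2, AGO2 and Hen1 did not. The list of replicate 1 had a summit at the same 7 of 24, against 13.5% of all protein-coding genes. That of replicate 2 had 4 of 24 (16.7%), AGO1, pAbp, r2d2 and AGO2, against 17.2% of all protein-coding genes.

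Short motifs were looked for in the 201 bases around every summit, both strands included. GAGAG was found at 5 of the 20 member summits (25%, 11.2 to 46.9%), against 33.1% of all conservative summits. At the non-coding host starts it was found at 6 of 11 (54.5%, 28 to 78.7%), the mir-14, mir-8, bantam, mir-275, mir-bft and mir-10 hosts, and at the coding host starts at 10 of 47 distinct summits (21.3%). CACACACA was found at 2 of 20 member summits, against 8.8% of all, and the Zelda motif CAGGTAG at 1 of 20, that of mir-9370, against 1.26%. The promoter motif TATCGATA (DRE), found at 2.98% of all summits, GGTCACAC (Motif 1, 3.03%) and the AP-1 site TGANTCA (4.24%) were at none of the 20. The upper Wilson limit for each, 16.1%, is above these shares, so the absence does not set member summits apart. The median GC content of the 201 bases was 45% at member summits (32.3 to 55.7%), against 42.8% at all summits.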

How the data were processed

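Chromatin immunoprecipitation with an anti-GFP antibody was sequenced for 2 biological replicates, per the labels, and deposited as peak lists on dm6, per the labels. Neither aligner nor peak caller is named in the sources used here. Each list (per replicate, pooled, and conservative) comes ranked and after a limit on irreproducible discovery rate (IDR), 8 lists in all. Signal values are used as deposited, on a scale that no source here gives; of the conservative peaks, 88% are 336 bp wide. The deposited −log10 column of the ranked lists holds the global IDR, and other deposited columns give the summit offset within the peak. Replicate means and SDs use the 2 signals per peak of the ranked list that pairs the replicates.

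Computed here with Python 3.11.15, numpy 2.4.6, pandas 2.3.3 and scipy 1.17.1: summits were placed on Ensembl models (BDGP6.54) and sequences read from the RefSeq release 6 genome. A host spans the precursor on its strand. Alternatives tried were windows of 250, 1000 and 2000 bp, the pooled and replicate lists, the stronger 50% of peaks and overlap by 1 bp, among others given at the end. Wilson intervals (95%) cover counting error only. No p-values were computed. The placement of summits was tested on simulated data. Members and lists were chosen with earlier results of these data known. Named are all members with a summit in any list past the threshold, the 5 nearest outside the window, a role list and all machinery genes; hosts are named for their rank or their microRNA, after their values were seen. nbr was matched to the symbol Nbr, bantam to mir-ban and let-7 to mir-let7.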

Additional observations from a re-analysis of the deposited data

How the results depend on the processing

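The share of precursors with a summit followed the distance allowed. With a window of 250 bp there were 10 of 260 precursors, 8 loci, 2 precursors in protein-coding hosts and 1 outside genes; the median signal of summits near members was then 64.6, against 88.6 as reported. With 1000 bp there were 26 precursors, 24 loci, 1 precursor opposite a gene and 4 outside genes, and the median signal was 89.6. With 2000 bp there were 39 precursors, 35 loci, 16 precursors in protein-coding hosts, 13 in non-coding hosts, 3 opposite a gene and 7 outside genes. The share of all genes rose with the window too. It was 10.7% at 250 bp, 16.3% at 1000 bp and 21.2% at 2000 bp, against 3.85%, 10% and 15% of precursors. Among the stronger 50% of peaks there were 5 precursors, 5 loci and 3 of the 24 machinery genes. Of the precursors, 4 lay in protein-coding hosts (2.94%), 1 in non-coding hosts (2.17%) and 0 outside genes. The order of the host contexts did not hold here, on counts too small to rank them. The share of all genes near these stronger peaks was not computed. Overlap by any part of a peak gave 1 precursor opposite a gene. The pooled list gave 13 precursors in protein-coding hosts, a median distance of 8935 bp and a median signal of 67.6. With only summits more than 500 bp from protein-coding starts the median distance was 33839 bp. The cause of these shifts was not tested.

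In the lists of the single replicates the ranges were 13 to 14 precursors, 12 to 14 loci, 44 to 62 hosts and 4 to 7 machinery genes. Precursors in protein-coding hosts numbered 7 to 8, in non-coding hosts 5 in each list, opposite a gene 0 and outside genes 1. The median distance was 16144 to 16366 bp and the median signal 44.6 to 45.3. The share of hosts with a start summit stayed within 1.5 times the reported count in each alternative tried, from 42 to 69 of 161 on the same strand and 64 of 188 on either strand. Requiring a signal of at least 10, a limit added after seeing the data, gave the same 17 precursors in number. No paired analysis was possible because the samples form a single group. The unknown depth limits what the absence of a summit at a precursor can show.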
